A study of Rattus norvegicus with 74 samples.

Results

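The genes that carry fatty acids into muscle cells, store them as triglyceride, release them again and burn them in mitochondria were followed across red gastrocnemius muscle, mitochondria isolated from it and the left ventricle of sedentary and treadmill-trained rats. They were chosen by name from a list of 41 symbols, and 40 of the 41 were found by symbol among the 30560 genes of the 3 count tables. Cd36, which encodes a fatty acid transporter of the plasma membrane, was not matched by symbol and is not analysed here.

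All rats were male wild-type Wistar Kyoto animals, 9 weeks old at sampling, and every group drank water containing deuterium oxide. Trained rats (ExT) ran on a treadmill on 5 days a week for 4 weeks from 5 weeks of age and reached 60 min a session at 20 m/min, whereas sedentary rats (Sed) spent the same time on a treadmill that did not move. Sampling followed 24 h after the final run. Whole red gastrocnemius (SM) and mitochondria from the same muscle (MT) gave 15 libraries from sedentary and 15 from trained rats each, and the left ventricle wall (LV) gave 7 and 7. The mitochondria were captured with antibodies and treated with RNase-A and proteinase-K. An MT library reports what was left in that preparation, and how much of it came from the organelles was not tested. SM and MT libraries were made with one depletion kit from 50 ng and 10 ng of RNA, LV libraries with another kit from 100 ng. The labels number the rats, so p-values of the training comparisons within a tissue measure the spread between rats. Comparisons between tissues, and of training effects between tissues, treat libraries of the same rat as independent in the main fit. Fits with the rat as a block are among the alternatives. The left ventricles came from 1 rat per arm numbered 2 to 16 and 6 per arm numbered 17 to 32, and SM and MT from 7 and 8 per arm, so muscle results are also given for each range of numbers, a split that the labels do not describe.

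The SM libraries held 19477976 to 39401323 counts, the MT libraries 530397 to 9988027 and the LV libraries 54645657 to 75758777. The 40 genes took a median of 0.585% of nuclear-gene counts in sedentary muscle, 0.718% in trained muscle, 2.01% in the 14 ventricles and 0.177% in the 30 MT libraries. Markers went with the tissue labels: the 6 heart muscle markers summed to a median of 25329 CPM (a gene's counts scaled to a fixed library total) in sedentary ventricles, where 2 of 9 fast-fibre markers passed the filter on low counts and summed to 2.24 CPM, while the fast-fibre sum in sedentary muscle was 79256 CPM. In MT the heart muscle markers summed to 272 CPM, the fast-fibre markers to 303 CPM and the slow-fibre markers to 179 CPM in sedentary rats. These muscle lists were thus not set apart there as they were in whole tissue. The adipocyte and blood sums were lower, at 93.8 and 25.5 CPM, and the lists differ in length. All levels below are CPM after scaling by trimmed means (TMM) within the libraries of 1 comparison, so the muscle level of a gene differs somewhat between comparisons. Levels are not compared between genes, since transcript lengths were not used.

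Long-chain fatty acids reach muscle from sources that include circulating lipoproteins, which lipoprotein lipase (Lpl) hydrolyses at the capillary wall. They also come from droplets inside the fibre, which are opened by the lipases Pnpla2 and Lipe. Inside the cell they are bound by Fabp3, joined to coenzyme A by Acsl enzymes and passed into the mitochondrion by the carnitine shuttle of Cpt1 and Cpt2. The beta-oxidation spiral then shortens them step by step and hands electrons to the respiratory chain through the flavoproteins Etfa and Etfb and the enzyme Etfdh. The heart runs largely on fatty acids, and among skeletal fibres the slow oxidative ones use them most.

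The ventricle differed from red gastrocnemius in most of these genes. In the 7 sedentary rats with both tissues, 34 of 40 genes passed the test, with 29 higher and 5 lower in the ventricle. Among all 14367 genes tested, 78.7% passed, with 40% higher and 38.6% lower. The test was edgeR's quasi-likelihood test with Benjamini-Hochberg adjustment over all genes and a threshold of 0.05. The median log2 difference was 0.90 for the 40 genes and 0.04 for all genes. For 27 of the 40 every ventricle lay above every muscle, as for 27.9% of all genes, and for 4 every ventricle lay below, as for 28.1%. Kit, RNA input and tissue differed together between LV and SM and cannot be told apart. In whole tissue, fewer cells of a type and less RNA per cell cannot be told apart either.

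Of the uptake genes, Lpl ran from 234 to 391 CPM in sedentary muscle, with a median of 325, and from 1501 to 2037 CPM in the ventricles of the same rats, with a median of 1821. Fabp3, the cytosolic fatty acid carrier of muscle and heart, ran from 220 to 301 CPM in muscle (median 251) and from 1194 to 1558 CPM in the ventricle (median 1428). Neither gene had overlapping values: Lpl was 5.74-fold higher in the ventricle (log2 2.52, SE 0.113) and Fabp3 5.35-fold (log2 2.42, SE 0.092). The transporter gene Slc27a1 was higher too (log2 0.80, SE 0.096), whereas its relative Slc27a4 was lower, at 4.48 to 5.02 CPM in the ventricle against 6.90 to 9.80 CPM in muscle (log2 −0.75, SE 0.079). Angptl4, a secreted inhibitor of Lpl, did not pass (log2 −0.60, SE 0.508, adjusted p = 0.287) and varied widely between rats, from 0.850 to 5.76 CPM in muscle and from 0.489 to 5.00 CPM in the ventricle. With the rat as a block it passed as lower (log2 −0.76, adjusted p = 0.0152 by edgeR).

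The largest fall in the ventricle belonged to Acsl6, one of the enzymes that join fatty acids to coenzyme A. It ran from 14.3 to 17.1 CPM in the ventricle (median 14.8) and from 107 to 138 CPM in muscle (median 120), a 7.88-fold lower level (log2 −2.98, SE 0.074, adjusted p = 1.35e-17 by edgeR). Acsl1, of the same enzyme family, went the other way (log2 0.97, SE 0.092). Both isoforms of the outer gate of the carnitine shuttle were higher in the ventricle. Cpt1a, the form known from liver, ran from 6.44 to 9.02 CPM in muscle (median 7.59) and from 37.7 to 45.5 CPM in the ventricle (median 41.3; log2 2.44, SE 0.073). Cpt1b, the muscle form, ran from 161 to 252 CPM in muscle and from 327 to 435 CPM in the ventricle (log2 0.84, SE 0.093). Cpt2 (log2 1.02) and the malonyl-CoA decarboxylase Mlycd (log2 0.91) were higher as well, and the carnitine acetyltransferase Crat was slightly lower (log2 −0.28, SE 0.101, adjusted p = 0.017), a call that was lost when libraries were scaled by their totals (log2 −0.04).

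Of the 14 genes of the beta-oxidation spiral, 12 were higher in the sedentary ventricle and none was lower, with a median log2 difference of 1.26. The rises ran from 0.49 for Hadha to 1.63 for Acads, the short-chain acyl-CoA dehydrogenase. The dehydrogenases for medium and long chains stood apart: Acadm ran from 393 to 603 CPM in the ventricle and from 488 to 675 CPM in muscle (log2 −0.20, SE 0.093, adjusted p = 0.0591), and Acadl differed by −0.09 on the log2 scale (adjusted p = 0.394). With the rat as a block Acadm passed as lower (log2 −0.20, adjusted p = 0.0226), and in all 7 rats its ventricle value was below its muscle value, while scaling by library totals gave 0.04. Hadha and Hadhb, which encode the α and β subunits of the mitochondrial trifunctional protein, rose by different amounts. Hadha ran from 283 to 390 CPM in muscle and from 382 to 519 CPM in the ventricle, so the tissues touched, whereas Hadhb ran from 278 to 402 CPM and from 691 to 946 CPM, a log2 rise of 1.37 (SE 0.091).

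The promoters of this subunit pair are shown because both genes start from 1 short stretch of chromosome 6 and are read in opposite directions: the windows of 250 bases before to 50 after each start share 200 bases. Ucp2 and Ucp3, neighbours on chromosome 1 that differed in opposite directions between the tissues, are shown for contrast. The sequences are RefSeq windows of the GRCr8 assembly, 5′ to 3′ on the strand of each gene, and capitals mark the letters AGGTCA or their reverse complement TGACCT, the core motif of nuclear receptors such as the PPARs. The window of Hadha is chr6:31907551-31907850 on the plus strand, that of Hadhb chr6:31907451-31907750 on the minus strand, that of Ucp2 chr1:164251123-164251422 and that of Ucp3 chr1:164227660-164227959, both on the plus strand.
Hadha: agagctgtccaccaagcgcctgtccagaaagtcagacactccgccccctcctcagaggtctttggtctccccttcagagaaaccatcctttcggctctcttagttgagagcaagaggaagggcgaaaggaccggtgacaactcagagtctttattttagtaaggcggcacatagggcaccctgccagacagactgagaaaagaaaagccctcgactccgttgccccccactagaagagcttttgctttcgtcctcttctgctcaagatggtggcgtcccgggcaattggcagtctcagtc
Hadhb: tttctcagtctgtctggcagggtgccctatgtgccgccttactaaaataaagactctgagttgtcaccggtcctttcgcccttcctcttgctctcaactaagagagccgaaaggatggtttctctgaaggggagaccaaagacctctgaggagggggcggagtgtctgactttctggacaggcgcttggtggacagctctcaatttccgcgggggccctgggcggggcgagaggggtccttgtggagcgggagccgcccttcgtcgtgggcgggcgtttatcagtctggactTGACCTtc
Ucp2: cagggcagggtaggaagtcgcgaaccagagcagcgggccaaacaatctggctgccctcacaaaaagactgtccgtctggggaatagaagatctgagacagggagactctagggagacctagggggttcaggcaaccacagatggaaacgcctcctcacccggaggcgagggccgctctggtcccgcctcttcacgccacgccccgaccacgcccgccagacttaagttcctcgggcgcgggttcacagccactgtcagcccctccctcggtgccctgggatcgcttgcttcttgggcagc
Ucp3: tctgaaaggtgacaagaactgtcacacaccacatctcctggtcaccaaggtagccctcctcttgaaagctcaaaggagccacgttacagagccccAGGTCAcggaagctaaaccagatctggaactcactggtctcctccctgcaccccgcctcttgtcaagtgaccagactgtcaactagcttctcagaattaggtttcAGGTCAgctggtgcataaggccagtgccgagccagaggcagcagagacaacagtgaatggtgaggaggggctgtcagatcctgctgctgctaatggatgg
The Hadhb window held 1 copy of the motif, the Ucp3 window 2, and those of Hadha and Ucp2 none. RefSeq promoter windows were at hand for 33 of the 41 listed genes, 38 windows in all, and 9 of the 38 (23.7%) held AGGTCA on either strand, against 16.2% of all 33469 windows. The repeat AGGTCANAGGTCA, which contains that motif at both ends, was in 0 of 38 windows and in 0.0538% of all. A match is a description of letters, not of binding.

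Ucp3, the uncoupling protein of skeletal muscle, ran from 29.8 to 150 CPM in sedentary muscle (median 53.4) and from 12.4 to 18 CPM in the ventricle (median 15.1), with no overlap (log2 −2.11, SE 0.304, adjusted p = 2.31e-05 by edgeR). Ucp2, its broadly expressed relative, ran from 5.68 to 10.1 CPM in muscle and from 29.2 to 47.7 CPM in the ventricle, 4.61-fold higher (log2 2.20, SE 0.136). Muscle thus held the wider spread of Ucp3 between rats, and the ventricle the higher level of Ucp2. Acot2, which releases fatty acids from coenzyme A in mitochondria, was higher in the ventricle as well (76.8 to 128 against 19.4 to 27.6 CPM, log2 2.19, SE 0.117).

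The largest difference of all was in Etfb, the β subunit of the electron transfer flavoprotein: 0.493 to 1.19 CPM in muscle, which is 14 to 32 counts a library, and 30.1 to 37.9 CPM in the ventricle, which is 2202 to 2681 counts. That is 36.5-fold (log2 5.19, SE 0.130, adjusted p = 1.42e-17 by edgeR). Its partner Etfa differed by 0.47 (SE 0.069) and Etfdh by 0.89 (SE 0.070) on the log2 scale, so the 2 subunits of 1 flavoprotein were set very differently in the 2 kinds of library.

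In droplet storage the genes split. The droplet coat gene Plin5, which links droplets to mitochondria, was higher in the ventricle (19.4 to 25.2 against 7.56 to 17.5 CPM, log2 0.96, SE 0.136), as were Plin2 (log2 0.97, SE 0.064) and Abhd5, the activator of Pnpla2 (log2 0.34, SE 0.062). The lipase genes Pnpla2 (log2 −0.21, adjusted p = 0.113) and Lipe (log2 −0.04, adjusted p = 0.76) and the coat gene Plin4 (log2 0.16, adjusted p = 0.154) did not pass. The enzymes of the last step of triglyceride synthesis went opposite ways, Dgat1 higher (log2 0.78, SE 0.077) and Dgat2 lower, at 7.82 to 10.8 CPM in the ventricle against 28.2 to 52.1 CPM in muscle (log2 −2.07, SE 0.119).

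**Figure D1:**
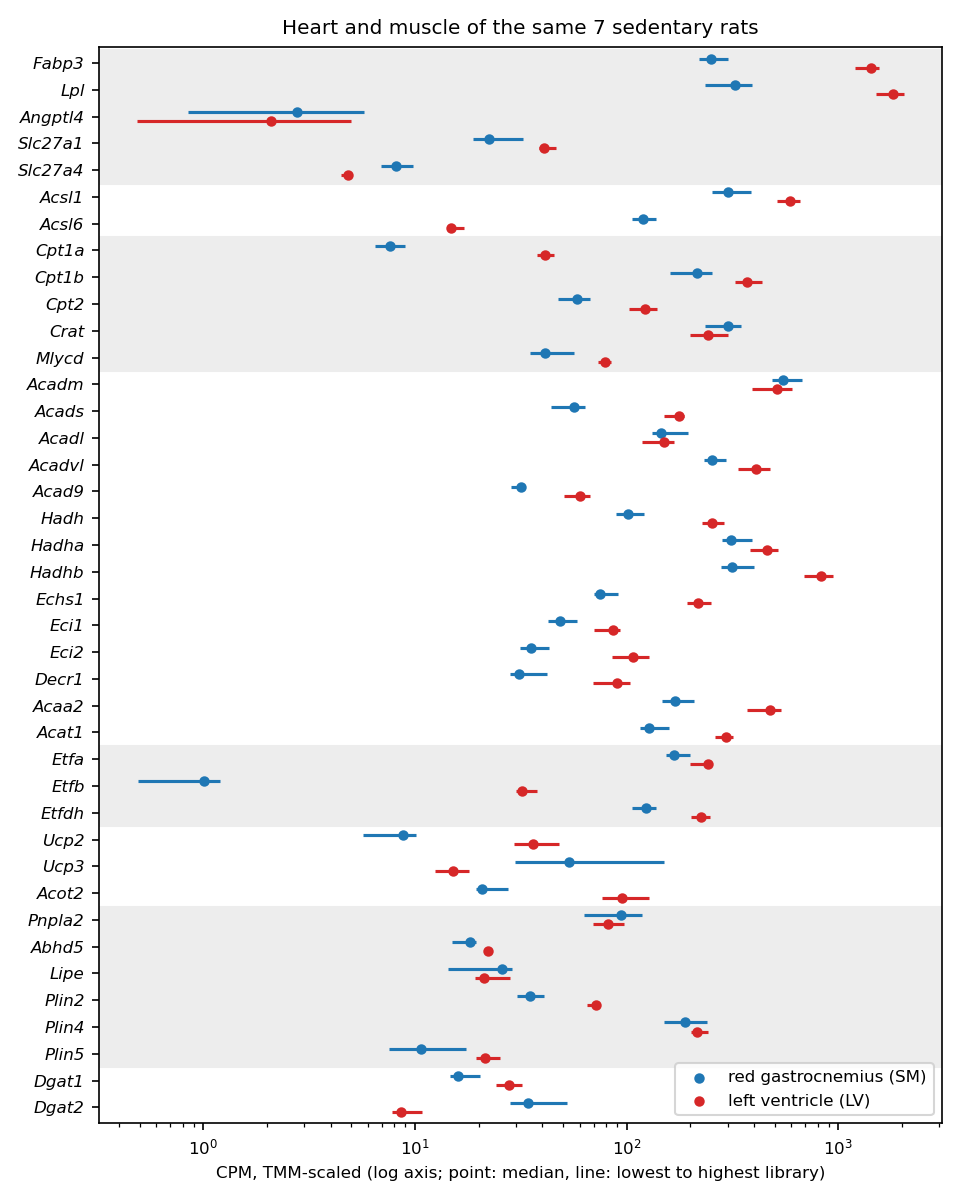
Levels of the 40 genes in sedentary left ventricle and sedentary muscle of the same 7 rats. Each gene is a row, and both tissues share the horizontal axis (CPM, log scale). Points are medians, and lines run from the lowest to the highest library. The ventricle lies far to the right of muscle for Etfb, Lpl, Cpt1a and Fabp3, and far to the left for Acsl6, Ucp3 and Dgat2.

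In trained rats 37 of 40 genes passed between ventricle and muscle, 30 higher and 7 lower, where 79.3% of 14338 genes did, 39.7% higher and 39.5% lower. The median log2 difference was 1.00 for the 40 genes and 0.01 for all genes, and 27 and 4 genes did not overlap, as for 27.9% and 29.1% of all genes. The same 6 genes led the rises: Etfb (log2 5.22, SE 0.129), Lpl (2.54, SE 0.139), Fabp3 (2.49, SE 0.174), Cpt1a (2.36, SE 0.161), Ucp2 (2.15, SE 0.147) and Acot2 (2.07, SE 0.128). The falls were Acsl6 (log2 −2.96), Ucp3 (−2.27), Dgat2 (−2.05), Slc27a4 (−0.61), Pnpla2 (−0.30, adjusted p = 0.0126), Lipe (−0.25, adjusted p = 0.0484) and Crat (−0.20, adjusted p = 0.034), by edgeR. Those of Pnpla2 and Lipe were lost when libraries were scaled by their totals (log2 −0.11 and −0.06) and in the rats numbered 17 to 32 (−0.24 and −0.22). Lipe also lost its call by edgeR without the filter on low counts (adjusted p = 0.101), with nuclear genes only (adjusted p = 0.0556) and with the range of rat numbers as a covariate (adjusted p = 0.0507). Cpt1b (0.86), Hadha (0.49) and Plin5 (1.07) were higher, and Acadm (−0.09, adjusted p = 0.534), Acadl (0.20) and Angptl4 (−1.25, adjusted p = 0.114) did not pass. Scaling by library totals moved the all-gene split from 5750 higher and 5551 lower to 7226 and 4296 in sedentary rats and from 5697 and 5666 to 6811 and 4549 in trained rats, and the members to 30 higher and 4 lower and to 31 and 4. It moved the all-gene median to 0.28 and 0.21 and the members' median to 1.14 and 1.20.

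Of 69 further genes of fatty acid handling listed beside the 40, 66 were in the tables, and 30 of 61 tested were higher and 18 lower in the sedentary ventricle, where 40% and 38.6% of all genes were. Other oxidation genes went mostly up (12 of 14 higher, 1 lower). Of 5 tested genes of ketone use and fuel choice 4 were higher, among them Bdh1 at log2 1.91 and Oxct1 at 1.65, enzymes of ketone body use, and 1 was lower, the kinase Pdk4 that closes pyruvate dehydrogenase (log2 −2.14, SE 0.379). Of 13 regulators 2 were higher, Ppara (log2 0.92) and Esrra (0.72), and 8 were lower, including Rxra (−2.30) and Ppard (−0.75). The droplet genes Cidea (3.12) and Fitm1 (−3.13) went opposite ways.

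RNA from captured mitochondria held little of these transcripts. In sedentary rats 39 of 40 genes passed between MT and SM, 3 higher and 36 lower, where 94.8% of 22842 genes passed, 61.7% higher and 33.1% lower. The median log2 difference was −3.27 for the 40 genes and 1.81 for all genes, and 0 of the 40 stood above the all-gene median. In 32 genes every MT library lay below every muscle library, as for 24.6% of all genes, and in 1 every MT library lay above, as for 50.9%. The 2 kinds of library differed in RNA input, depth and content together. In MT the median count of a member gene was 28.5 a library, and the 1260 odorant and vomeronasal receptor genes, which muscle does not normally transcribe, took a median of 1.69% of nuclear-gene counts, with a median of 7.5 counts a gene, against 0.00119% in SM and 0.00206% in LV. The part of such counts in the MT levels was not tested.

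All 14 spiral genes were lower in MT, by log2 −1.64 to −6.12. Acadm ran from 469 to 1042 CPM in sedentary muscle (median 835) and from 7.87 to 15.9 CPM in MT (median 12.3), 69.6-fold lower (log2 −6.12, SE 0.125, adjusted p = 2.43e-39 by edgeR). Hadhb ran from 269 to 614 CPM in muscle and from 2.43 to 13.7 CPM in MT (log2 −6.09, SE 0.159), Acadl from 119 to 298 and from 3.77 to 10.7 CPM (log2 −4.93, SE 0.144), and Hadha differed by −4.92 (SE 0.124). No MT library reached the lowest muscle library in any of these 4 genes. Outside the spiral, Fabp3 (132 to 559 against 5.41 to 14.1 CPM, log2 −5.37, SE 0.203), Etfa (139 to 322 against 4.37 to 9.16 CPM, log2 −5.14, SE 0.119) and Lpl (196 to 760 against 6.64 to 33.0 CPM, log2 −4.95, SE 0.229) fell most. Cpt1b (log2 −4.01), Pnpla2 (−3.95) and Ucp3 (−3.35) were between those and the coat gene Plin5, which ran from 6.61 to 28.2 CPM in muscle and from 6.39 to 15.1 CPM in MT (log2 −0.48, SE 0.166, adjusted p = 0.00743). That call was lost by DESeq2 (log2 −0.08, adjusted p = 0.646) and, by edgeR, with RLE size factors (−0.08, adjusted p = 0.65) and in rats 2 to 16 (−0.44, adjusted p = 0.196). Slc27a1 (log2 −0.59) and Ucp2 (−0.60) also lost theirs by DESeq2 (−0.18 and −0.20) and with RLE size factors (−0.18 and −0.20).

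Cpt1a was the only member whose MT libraries all lay above the muscle libraries, 16.3 to 26.6 against 7.93 to 15.2 CPM, higher in 15 of 15 rats (log2 0.87, SE 0.089, adjusted p = 1.22e-12 by edgeR). Etfb passed as higher on 1 to 11 counts a library in MT and 9 to 32 in muscle (log2 0.97, SE 0.229, adjusted p = 0.000124), and Slc27a4 was higher in 11 of 15 rats (log2 0.33, SE 0.101, adjusted p = 0.00226). The call for Slc27a4 was lost by edgeR without the filter on low counts (log2 0.18, adjusted p = 0.0852) and in rats 17 to 32 (0.06, adjusted p = 0.653). All 3 rises were smaller than the all-gene median of 1.81. Angptl4 did not pass (log2 0.53, adjusted p = 0.128), though with the rat as a block it did (0.81, adjusted p = 0.000559). Scaling by library totals moved the all-gene median to 3.43 and the members' median to −1.61, and gave 9 members higher and 27 lower beside 17616 genes higher and 2811 lower (14086 and 7562 after TMM). Of the lower calls, Plin5 (1.12), Slc27a1 (1.04), Dgat1 (1.01), Ucp2 (0.99) and Lipe (0.59) then passed as higher and Abhd5 turned to 0.11 without passing, whereas all 14 spiral genes kept their direction in sedentary rats.

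**Figure D2:**
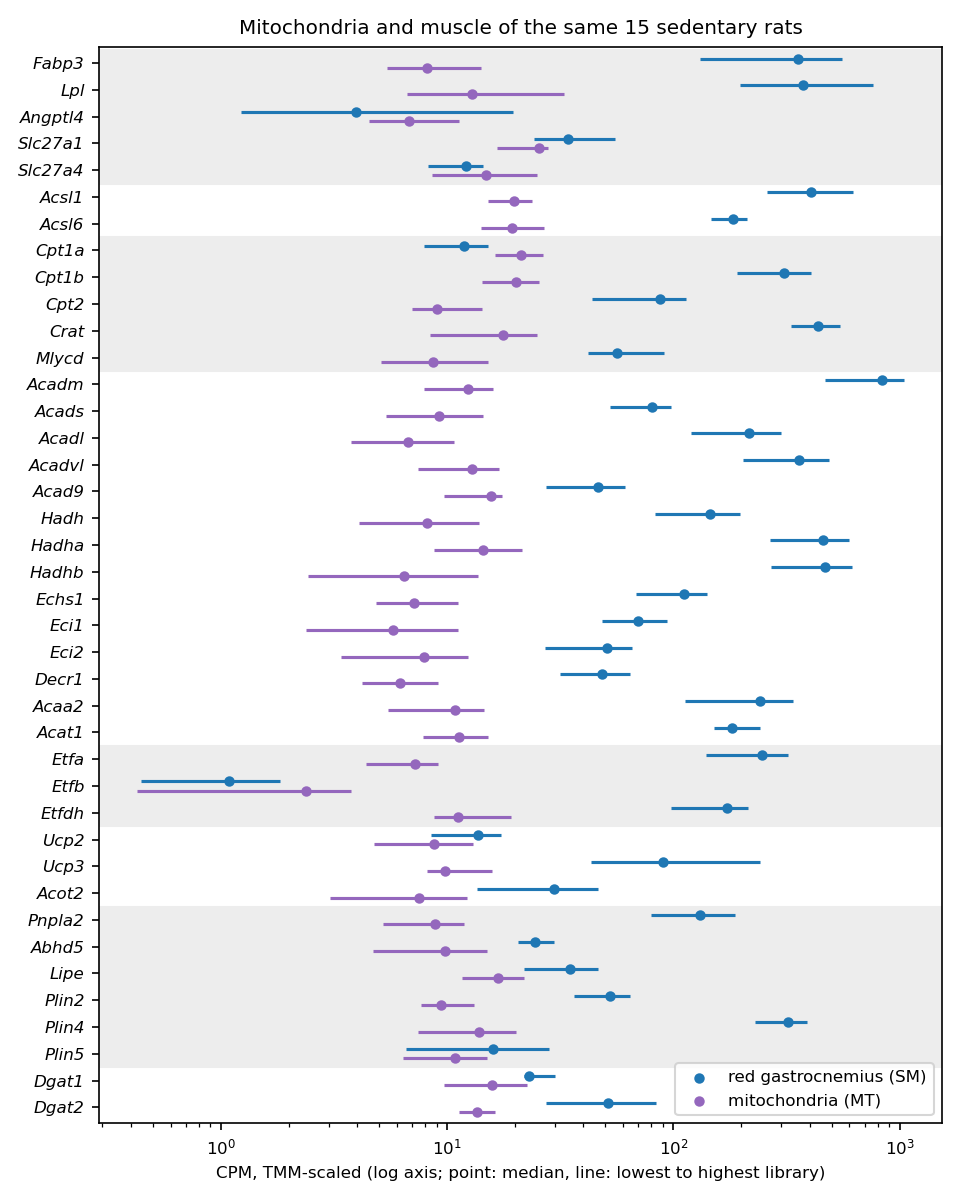
Levels of the 40 genes in mitochondrial RNA and whole muscle of the 15 sedentary rats. Each gene is a row, and both kinds of library share the horizontal axis (CPM, log scale). Points are medians, and lines run from the lowest to the highest library. Mitochondrial RNA lies farthest to the left of muscle for Acadm, Hadhb and Fabp3, and to the right of it for Cpt1a.

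In trained rats 38 of 40 genes passed between MT and SM, 2 higher and 36 lower, where 94.3% of 21312 genes did, 59.3% higher and 35% lower. The median log2 difference was −3.46 for the 40 genes and 1.31 for all genes, of which 62% were above 0. Acadm led again, at 575 to 1341 CPM in muscle and 6.39 to 14.3 CPM in MT (log2 −6.41, SE 0.133, adjusted p = 1.13e-39 by edgeR), followed by Hadhb (−6.10), Fabp3 (−5.86), Hadha (−5.15), Lpl (−5.15) and Acadl (−5.14). No MT library overlapped muscle in 33 genes, all of them lower (25.7% of all genes were lower without overlap and 48.4% higher, with 0 of the 40). Cpt1a (log2 0.67, SE 0.111, adjusted p = 3.31e-07) and Slc27a4 (0.27, SE 0.103, adjusted p = 0.0113) were higher, and Etfb (0.08) and Angptl4 (0.33, adjusted p = 0.501) did not pass. Slc27a4 again lost its call by edgeR without the filter on low counts (0.11, adjusted p = 0.319) and in rats 17 to 32 (0.19, adjusted p = 0.153). Cpt1b stood at −4.25, Pnpla2 at −4.14, Ucp3 at −3.02 and Plin5 at −1.02. With library totals the members split into 7 higher and 27 lower and the genes into 15734 and 2458 (12631 and 7461 after TMM), with Acad9 (0.04), Abhd5 (0.10), Lipe (0.20), Plin5 (0.65), Ucp2 (0.75), Slc27a1 (0.79) and Dgat1 (0.87) turned above 0. Of the 66 further genes, 14 were higher and 44 lower in sedentary rats and 13 and 45 in trained rats.

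The question of the training comparison is whether transcripts of fatty acid use differ after 4 weeks of running, in muscle first. Of the 40 genes, 0 passed edgeR's test in red gastrocnemius, where 0.206% of 13570 genes did (28 genes, 0.184% higher and 0.0221% lower). By DESeq2 2 of the 40 passed, Pnpla2 and Lipe, both higher, where 1.01% of 13560 genes did and 0.767% were higher. At an unadjusted p under 0.05 by edgeR, 17 of the 40 had higher trained values and 0 lower, against 7.33% and 6.37% of all genes. The log2 difference was above 0 in 37 of 40 genes, against 47.9% of all genes, and the medians were 0.19 and −0.01. The lowest-to-highest ranges of the arms overlapped for all 40 genes, as for all 13570 genes tested.

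Pnpla2, the adipose triglyceride lipase that opens stored droplets, ran from 48.5 to 111 CPM in the 15 sedentary muscles (median 79.6) and from 80.1 to 136 CPM in the 15 trained muscles (median 105). All 15 trained values lay above the sedentary median, and the log2 difference was 0.38 (SE 0.109, adjusted p = 0.122 by edgeR, 0.0456 by DESeq2). Lipe, the hormone-sensitive lipase, ran from 13.6 to 27.2 CPM (median 21.3) and from 20.5 to 36.3 CPM (median 26), with 13 of 15 trained values above the sedentary median (log2 0.33, SE 0.090, adjusted p = 0.108 by edgeR, 0.042 by DESeq2). The other droplet genes gave smaller or less even differences: Plin5 ran from 4.06 to 16.6 CPM and from 7.52 to 20.8 CPM (log2 0.35, SE 0.179, adjusted p = 0.391), Abhd5 was at 0.01, Plin2 at −0.003 and Plin4 at −0.03. The triglyceride-forming Dgat1 and Dgat2 had differences of 0.17 (SE 0.056, adjusted p = 0.18) and 0.33 (SE 0.127, adjusted p = 0.245).

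Fabp3 had the largest fitted difference of the 40. It ran from 80.9 to 330 CPM in sedentary muscle (median 220) and from 149 to 472 CPM in trained muscle (median 280), with 11 of 15 trained values above the sedentary median (log2 0.39, SE 0.188, adjusted p = 0.357 by edgeR). Lpl ran from 121 to 467 CPM and from 201 to 395 CPM (log2 0.27, SE 0.162, adjusted p = 0.465), and Slc27a1 from 14.8 to 34.1 CPM and from 19 to 35.7 CPM (log2 0.31, SE 0.104, adjusted p = 0.187). Angptl4 had the widest error, at 0.753 to 11.5 CPM and 0.408 to 10.8 CPM (log2 0.12, SE 0.468). Acsl1 (log2 0.27, SE 0.106), Acsl6 (0.15, SE 0.057) and Cpt1b (0.24, SE 0.099) had adjusted p-values of 0.25, 0.236 and 0.292.

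All 14 genes of the beta-oxidation spiral had differences above 0, from 0.06 to 0.31 on the log2 scale, and 7 of them an unadjusted p under 0.05. Acadvl, the very-long-chain dehydrogenase, ran from 124 to 300 CPM in sedentary muscle (median 235) and from 210 to 343 CPM in trained muscle (median 271), with 12 of 15 trained values above the sedentary median (log2 0.31, SE 0.095, adjusted p = 0.157 by edgeR). The isomerase gene Eci2 was at 0.29 (SE 0.097, adjusted p = 0.181), Hadha at 0.25 (SE 0.104, adjusted p = 0.292) and Acadm at 0.21 (SE 0.102, adjusted p = 0.351). The 3 electron transfer genes and the 5 of the carnitine shuttle were above 0 as well, at medians of 0.20 and 0.13. Ucp3 stood apart: it ran from 28.1 to 142 CPM in sedentary muscle (median 54.7) and from 25.7 to 117 CPM in trained muscle (median 45.5), with 3 of 15 trained values above the sedentary median (log2 −0.24, SE 0.230, adjusted p = 0.679).

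**Figure D3:**
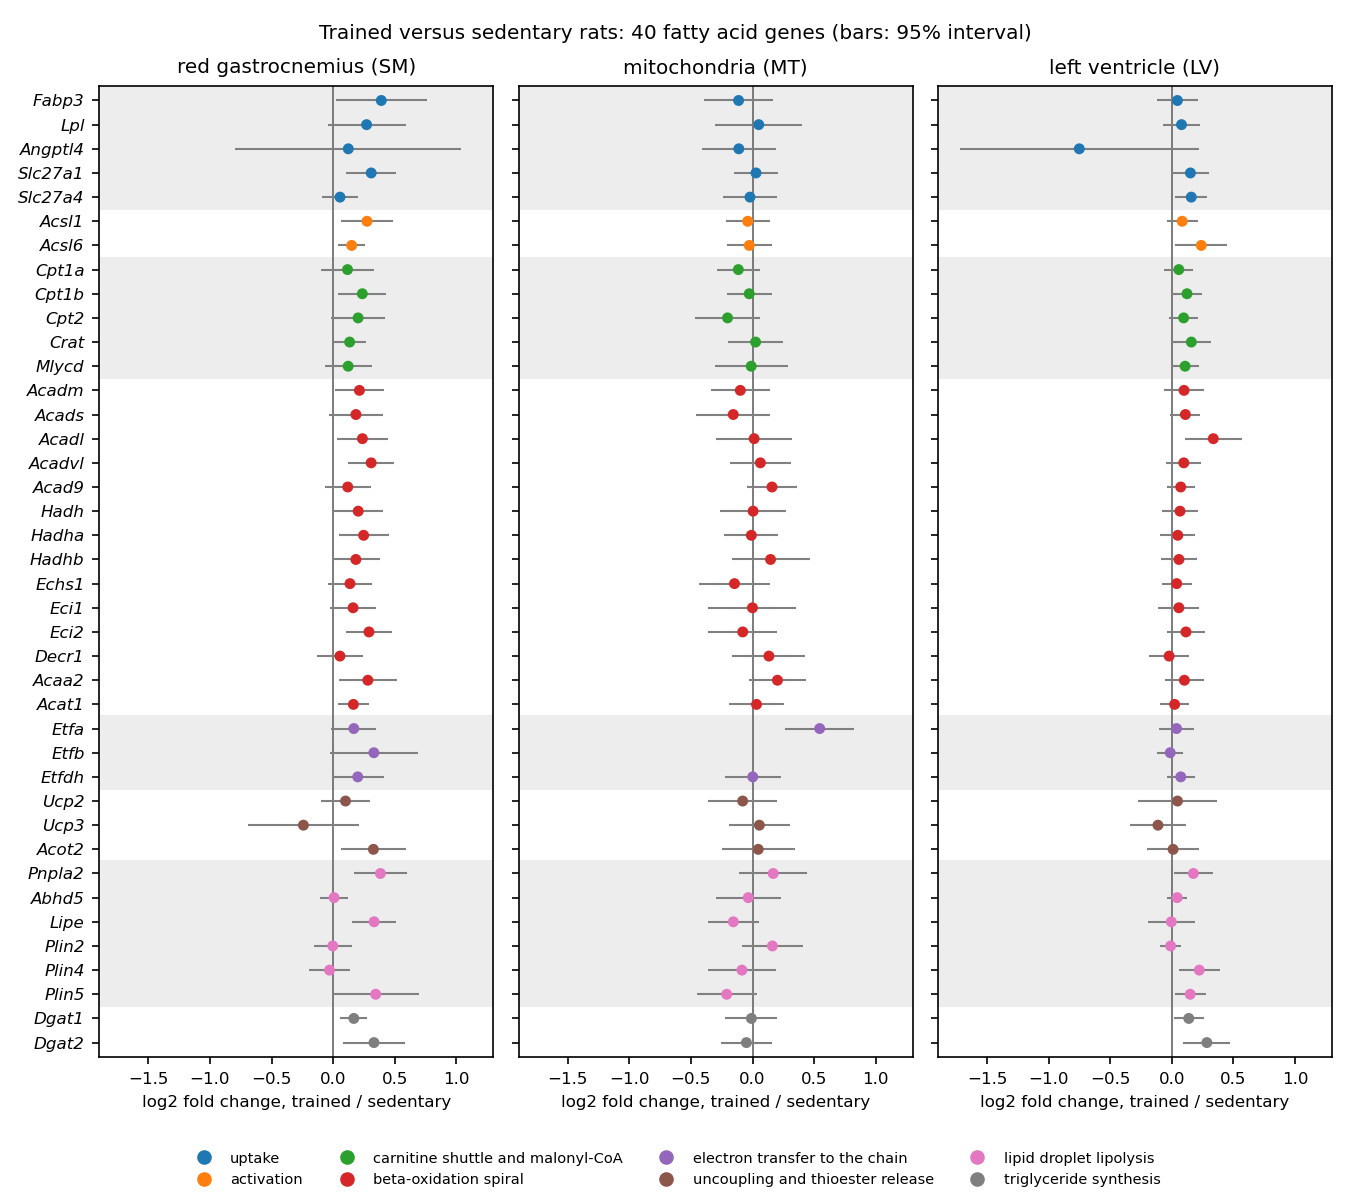
Log2 difference between trained and sedentary rats for each of the 40 genes, with 95% intervals, in muscle, mitochondrial RNA and left ventricle (1 panel each), coloured by role. In muscle 37 of 40 estimates lie above 0 and none passes the test after adjustment over all genes.

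One library weighed on the lower end. Sedentary rat 8 had the lowest muscle level of 26 of the 40 genes, and it also had the highest adipocyte marker sum, 37.2 CPM against a sedentary median of 7.10. Without it 0 of the 40 genes passed and 12 genes in all did. The 3 adipocyte markers tested did not follow the members after group means were removed: r ran from −0.44 to 0.44 over the 30 muscles (median −0.26, and 0.06 without the 2 libraries farthest from the median marker level), and 0 of 40 passed the permutation test adjusted over 13570 genes, where 0.111% did, with medians of −0.27 and −0.03 within the 2 ranges of rat numbers.

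Fitted apart, the 2 ranges of rat numbers gave different muscle estimates. In the 14 rats numbered 2 to 16, 5 of the 40 genes passed, all higher in trained muscle, where 2.95% of all genes tested passed and 2.16% were higher. They were Pnpla2 (log2 0.56, SE 0.129, adjusted p = 0.0339), Acadvl (0.55, SE 0.132, 0.0374), Eci2 (0.53, SE 0.126, 0.0392), Acads (0.49, SE 0.127, 0.0468) and Lipe (0.46, SE 0.119, 0.0468), by edgeR. The log2 difference was above 0 in 37 of 40, with a median of 0.43, and reached 0.88 in Fabp3 (SE 0.280) and 0.63 in Lpl, while Ucp3 was at −0.73 (SE 0.270, adjusted p = 0.133). In the 16 rats numbered 17 to 32, 0 of 40 passed, where 0.00732% of all genes tested did, 24 of 40 estimates were above 0 and the median was 0.02. There Fabp3 was at −0.08, Acads at −0.10, Hadha at 0.04 and Ucp3 at 0.26.

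The difference between the ranges was itself tested, after the data had been seen. 0 of 40 genes passed edgeR's test of the arm by range term, as did 0 of 13570 genes, and the smallest adjusted p among the 40 was 0.201, for Abhd5 (log2 −0.33, SE 0.10). At an unadjusted p under 0.05, 18 of the 40 had a smaller training difference in rats 17 to 32 and 1, Ucp3, a larger one (log2 1.00, SE 0.43, adjusted p = 0.321), against 6.87% and 6.45% of all genes. DESeq2 called 56 of 6202 genes and none of the 40 among them. Estimates for 37 of the 40 were below 0, with a median of −0.37 beside 0.002 for all genes. All 14 spiral genes were below 0, and Fabp3 was at −0.95 (SE 0.34, adjusted p = 0.259).

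**Figure D4:**
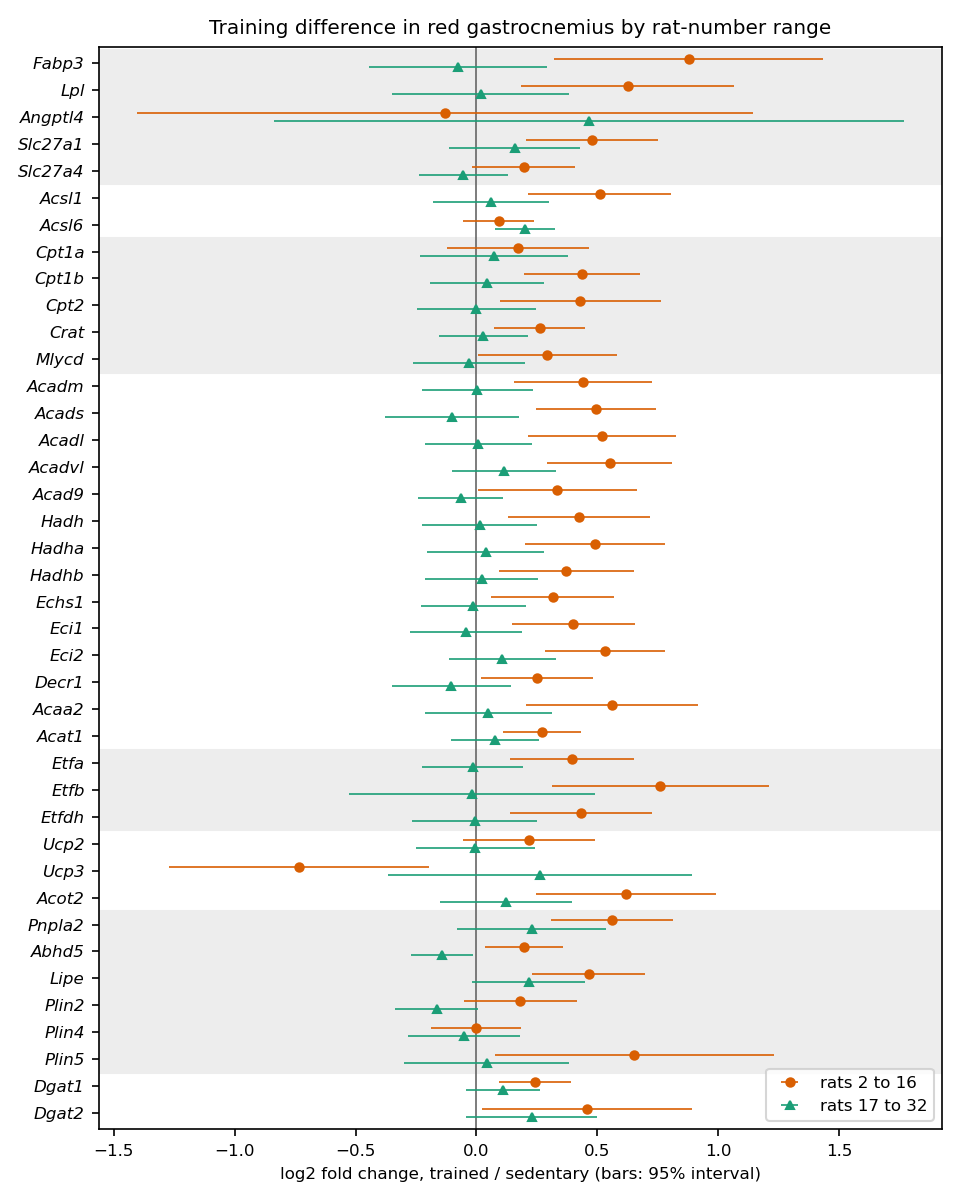
Log2 difference between trained and sedentary muscle for each of the 40 genes, fitted in rats numbered 2 to 16 (circles) and in rats numbered 17 to 32 (triangles). The circles have a median of 0.43 and the triangles a median of 0.02, and the triangle lies above the circle in 3 genes, Ucp3, Angptl4 and Acsl6.

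Markers of slow oxidative fibres moved with these genes from muscle to muscle. The 7 slow-fibre markers, which include the slow myosin Myh7, summed to 4334 to 24253 CPM in sedentary muscle (median 12581) and 4515 to 26566 CPM in trained muscle (median 16612). None of the 7 passed in the training comparison (log2 0.33 to 0.41, adjusted p from 0.543 to 0.667 by edgeR). By range, the sedentary median was 8762 CPM in rats 2 to 16 and 14993 CPM in rats 17 to 32, and the trained medians were 19544 and 13934 CPM. The order of the arms in the marker sum was thus trained above sedentary in the lower numbers and below it in the higher numbers.

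Across the 30 muscles, with group means removed, 39 of 40 genes correlated positively with the slow-fibre sum, and 32 passed a two-sided permutation test adjusted over all 13570 genes, where 9.68% were positive and passed. The median Pearson r was 0.73 for the 40 genes and −0.02 for all genes. Over all genes tested 8.63% had r above 0.5, and 32 of the 40 did. Cpt1b led (r = 0.874, Spearman rho = 0.850, permutation p = 1e-05, the smallest that 100000 permutations can give, adjusted p = 0.000329), with Acsl1 (r = 0.849, rho = 0.80), Fabp3 (0.848 and 0.862), Eci1 (0.837 and 0.867) and Cpt2 (0.837 and 0.863) close behind at the same permutation p. Pnpla2 was at r = 0.808 (rho = 0.782) and Hadha at 0.791 (rho = 0.856). The median r was 0.726 without the 2 libraries farthest from the median marker level, 0.723 in rats 2 to 16, 0.683 in rats 17 to 32, 0.788 in sedentary and 0.639 in trained rats.

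The 8 genes that did not pass across all 30 muscles were Acsl6 (r = −0.179, rho = −0.301, permutation p = 0.349), Angptl4 (0.067), Ucp3 (0.070, rho = 0.030, permutation p = 0.719), Slc27a4 (0.106), Ucp2 (0.117), Plin4 (0.270), Etfb (0.347) and Cpt1a (0.394, permutation p = 0.0243, adjusted p = 0.102). Of the 5 genes that were lower in the sedentary ventricle, Acsl6, Ucp3 and Slc27a4 were among these 8, and Crat (r = 0.636) and Dgat2 (r = 0.714) were not. Such correlations were computed for 3 marker lists. The endothelial sum, 287 to 556 CPM in sedentary and 384 to 580 CPM in trained muscle, gave a median r of 0.385 and 2 of 40 genes past the adjusted threshold (4.24% of all genes were positive and passed), with Lipe highest (r = 0.693, rho = 0.592). Endothelial values without the 2 farthest libraries had a median r of 0.275, and 0.566 and 0.160 within the 2 ranges.

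With the slow-fibre sum as a covariate, also added after the data were seen, 0 of the 40 genes passed by edgeR, where 0.125% of 13570 genes did. The log2 training difference was still above 0 in 35 of the 40, with a median of 0.09. Fabp3 was then at 0.15, Pnpla2 at 0.26, Lipe at 0.26 and Ucp3 at −0.30. The part of slow fibres in the training differences was not otherwise tested. Fast-fibre markers, 7 of 9 tested, summed to medians of 79256 CPM in sedentary and 71758 CPM in trained muscle and none passed.

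**Figure D5:**
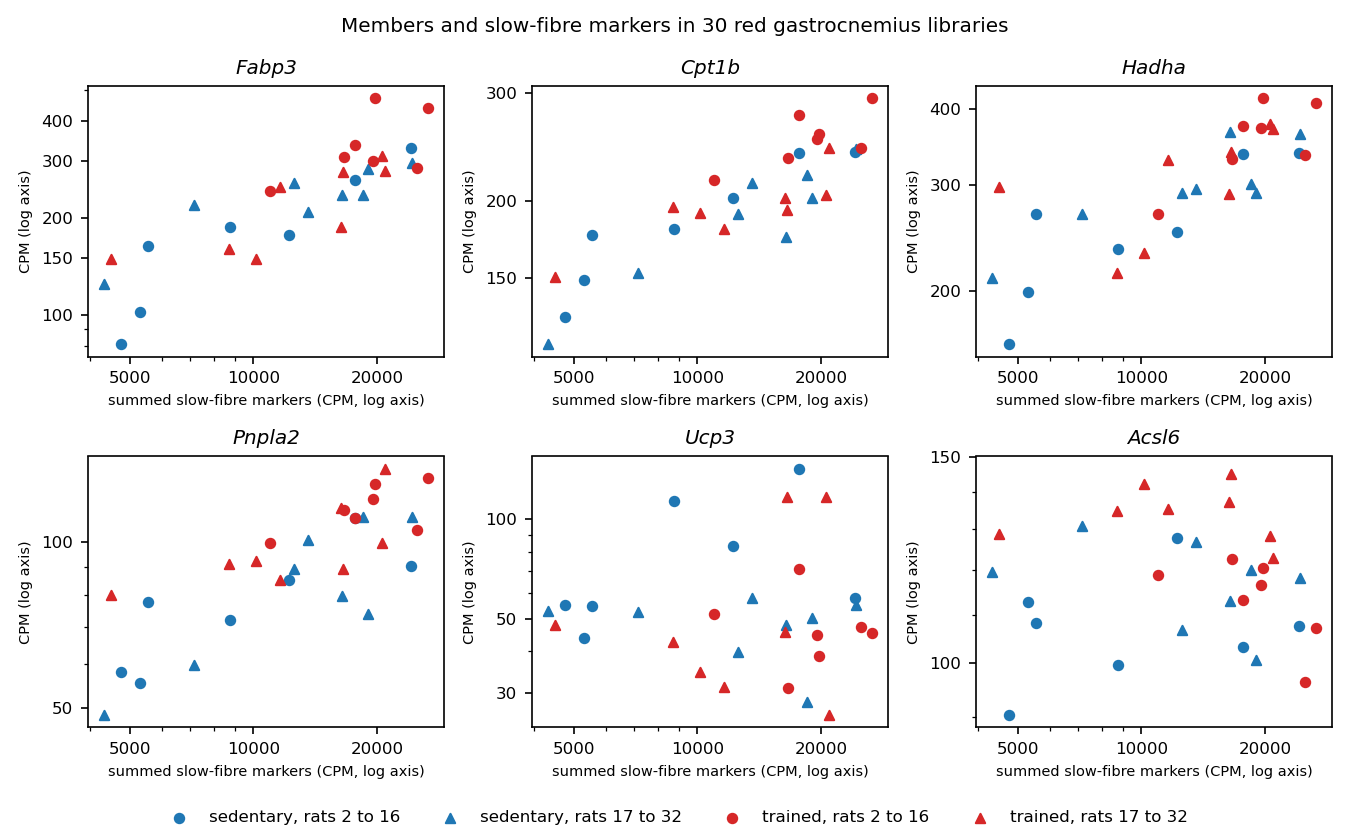
Levels of Fabp3, Cpt1b, Hadha, Pnpla2, Ucp3 and Acsl6 (vertical axes, CPM, log scale) against the summed slow-fibre markers (horizontal axes, CPM, log scale) in the 30 muscle libraries, coloured by arm and shaped by range of rat numbers. The first 4 genes climb with the marker sum, and Ucp3 and Acsl6 do not.

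In mitochondrial RNA, 0 of 39 genes passed in the training comparison (Etfb was below the filter), as did 0% of 19281 genes, and DESeq2 called 0. The log2 difference was above 0 in 17 of 39 genes, against 50.7% of all genes, and the median was −0.01. At an unadjusted p under 0.05 by edgeR 1 of the 39 was found, with a higher trained value, against 4.73% of all genes, or 2.53% counting higher ones alone. That gene was Etfa, at 9 to 29 counts a library in sedentary rats and 14 to 55 in trained rats, or 6.98 to 14.7 CPM (median 11.5) and 10.3 to 30.8 CPM (median 13.9). It had 14 of 15 trained values above the sedentary median and the lowest p of all genes tested there, but an adjusted p of 1.0 (log2 0.55, SE 0.142, p = 0.000203 by edgeR, adjusted p = 0.927 by DESeq2). For the others the log2 difference was between −0.21, for Plin5, and 0.20, with Cpt1b at −0.03, Acadm at −0.10, Hadha at −0.01, Pnpla2 at 0.17, Ucp3 at 0.06, Lpl at 0.05 and Angptl4 at −0.11. The median count of a member gene there was 28.5 a library, which limits the size of a difference that could be detected.

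In the left ventricle, 0 of 40 genes passed by edgeR, as did 0% of 14488 genes, and DESeq2 called 0 of the 40 and 0.00692% of all genes, a single gene that was higher. The log2 difference was above 0 in 34 of 40, against 50% of all genes, with medians of 0.07 and 7.15e-05. At an unadjusted p under 0.05, 8 of the 40 had higher trained values and 0 lower, against 3.41% and 2.49% of all genes (5.9% in all), and the smallest adjusted p was 0.804. Dgat2 ran from 8.62 to 11.5 CPM in 7 sedentary ventricles (median 9.43) and from 9.96 to 16.2 CPM in 7 trained ones (median 11.1), all 7 above the sedentary median (log2 0.28, SE 0.097). Acadl ran from 130 to 182 CPM and from 142 to 244 CPM (log2 0.34, SE 0.119), and Cpt1b from 359 to 464 CPM and from 405 to 498 CPM (log2 0.12, 7 of 7 above the sedentary median). The droplet coat genes Plin4 (0.22) and Plin5 (0.15), Acsl6 (0.24), Pnpla2 (0.17), Slc27a4 (0.16) and Dgat1 (0.14) were among the other 6 and Angptl4 had the lowest estimate, at −0.75 (SE 0.495, adjusted p = 0.828). Lipe, near the top in muscle, was at −0.004 here, and Fabp3 at 0.04. Acadm was at 0.10, Hadha at 0.05, Lpl at 0.08 and Ucp3 at −0.11. All 40 genes overlapped between the arms, as did 100% of genes after rounding.

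Whether training differences depended on the compartment was tested directly. Between MT and SM, 0 of 40 genes passed by edgeR, where 0.0181% of 27684 genes did. The estimate was lower in MT for 35 of 40, with a median of −0.24 beside −0.002 for all genes, and 10 had an unadjusted p under 0.05, all lower, against 4.78% of all genes. Lipe had the smallest adjusted p (log2 −0.52, SE 0.15, adjusted p = 0.254), and Fabp3 was at −0.55, Plin5 at −0.59, Cpt1b at −0.30, Acadm at −0.34, Hadha at −0.29, Pnpla2 at −0.25, Lpl at −0.25, Angptl4 at −0.24 and Ucp3 at 0.28. The test between LV and SM used only the muscle libraries of the 14 rats with a ventricle library, 6 of 7 per arm numbered 17 to 32. Muscle of all rats numbered 17 to 32 had a median training difference of 0.02 over the 40 genes. The larger difference over all muscles was thus not set against the ventricle. Between LV and SM, 0 of 40 genes passed by edgeR, as did 0% of 15049 genes, and DESeq2 called none of the 40. An unadjusted p under 0.05 was found for 0 of the 40, against 4.57% of all genes. The estimates had a median of 0.06 beside 0.01 for all genes, with Acadl at 0.31, Angptl4 at −0.62, Acadm at 0.13, Plin5 at 0.13, Ucp3 at −0.13, Pnpla2 at −0.07, Cpt1b at 0.04, Lpl at 0.04 and Hadha at 0.02. Scaling by library totals turned that median to −0.003.

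Of the 66 further genes of fatty acid handling, 0 of 60 passed in muscle, 0 of 63 in MT and 0 of 64 in LV in the training comparison. Over all genes tested 0.206%, 0% and 0% passed there by edgeR. Muscle estimates of the fuel regulators Ppara (log2 0.29, SE 0.083, adjusted p = 0.118) and Ppargc1a (0.19, SE 0.065, adjusted p = 0.198), the monoglyceride lipase Mgll (0.25, adjusted p = 0.09) and the carnitine carrier Slc25a20 (0.29, adjusted p = 0.301) were above 0. The median over the 60 was 0.05, and over the 4 genes of malonyl-CoA and synthesis it was −0.09. Several members overlap other genes in RefSeq, Fabp3 with Zcchc17, Slc27a1 with Pgls, Plin4 with Hdgfl2 and Acadvl with a microRNA. Acsl6, Cpt1a, Cpt2, Acadm, Acadl, Acat1, Etfa, Lipe and Dgat2 overlap genes named only by LOC numbers. The strand setting of the counting is not given in the sources used here. Reads of overlapping genes thus cannot be told apart in the values of all these members.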

How the data were processed

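RNA was sequenced from 74 libraries of 30 rats: muscle, muscle mitochondria and left ventricle. The values used are raw read counts per gene as deposited by the authors, in 3 tables of 30560 genes. Per the submitters' processing notes the tools were FastQC 0.74, cutadapt 4.6, STAR 2.7.11a and HTSeq, with the build mRatBN7.2. The strand setting is not given in the sources used here.

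Counts were tested with edgeR 4.0.16 (TMM scaling, filterByExpr, robust quasi-likelihood F test) in R 4.3.3, with Benjamini-Hochberg adjustment over all genes tested and a threshold of 0.05. Each comparison was fitted on its own libraries only, without covariates, and an SE is on the log2 scale. Training was compared in each tissue, MT and LV with SM in each arm, and training effects between tissues by interaction terms. The script was checked on simulated counts. Alternatives were DESeq2 1.42.0, other scalings, no filter, nuclear genes only, counts thinned to the smallest total, each range of rat numbers, the rat as a block and leaving out each library of the training comparisons. Correlations across muscles used log2 CPM, with 0.001 CPM added, centred within each arm, and 100000 permutations within arms. They were adjusted over all genes tested, where the design had named the members alone.

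Libraries with the same rat number come from the same rat, per the labels. The deviations of MT and SM libraries of 1 rat from their group means had a median correlation of 0.015 over 30 rats, and those of LV and SM 0.027 over 14 rats, and 3 and 2 rats correlated best with themselves. Depth ran from 530397 counts in the smallest MT library to 75758777 in the largest LV library. Without molecular identifiers reads are not independent molecules.

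The members, the further genes, the marker lists and the split by rat number were chosen with earlier results of these data known. All 40 members found are described by role. Named with values were members that passed a training or interaction test and the 6 largest rises and 6 largest falls that passed in a tissue comparison. At least the log2 difference is given in each planned comparison for Cpt1b, Acadm, Hadha, Pnpla2, Plin5, Ucp3, Lpl and Angptl4. Members nearest to the threshold in the training comparisons were named after their values were seen.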

Additional observations from a re-analysis of the deposited data

Results flagged for a closer look

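Plin2, a droplet coat gene, was low in 1 trained left ventricle. Rat 26 had 70.6 CPM there, while the other 6 trained ventricles lay between 75.4 and 78.8 CPM, a gap that is large for the range of the group. Of 80 groups of ventricle values examined in this way, 1 was singled out, and chance singles out about 1 in 20. Rat 26 also had the lowest trained value of 20 of the 40 genes in the ventricle and of 13 in muscle.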

How the results depend on the processing

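In muscle training, DESeq2 called 2 members and 137 genes, rats 2 to 16 gave 5 members and 396 genes, rats 17 to 32 gave 1 gene, the rat range as a covariate 45 genes and the slow-fibre sum, an alternative chosen after seeing the data, 17 genes, against 0 members and 28 genes. Leaving out 1 library at a time gave 0 to 0 members and 12 to 100 genes. Of the sedentary rats, leaving out 4, 8 or 12 gave 12 genes, 7 or 20 gave 14, 24 gave 18, 30 gave 46, 29 gave 69 and 23 gave 100. Of the trained rats, 27 gave 12, 5, 10 or 14 gave 13, 6 gave 14 and 25 gave 16. In MT and LV training each library left out gave 0 members and 0 genes, and DESeq2 called 1 gene in LV. Counts thinned to the smallest total gave 6203 genes between MT and SM in sedentary and 4176 in trained rats, with 33 of 37 and 32 of 34 members tested. The share over all genes tested is not reported here for thinned counts, so no result about the members is read from these member counts. For training differences between MT and SM (5 genes), library totals gave 0 genes, DESeq2 28, rats 17 to 32 gave 1, rats 2 to 16 gave 20 and the replicate block 3. DESeq2 called 1 gene between LV and SM, and 56 in the range test added after seeing the data.

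Among members that passed under at least 1 setting, and in tissue comparisons those named by the rule, these turned sign. Acads in muscle training was at −0.10 in rats 17 to 32. Between MT and SM in sedentary rats, library totals gave 1.12 for Plin5, 1.04 for Slc27a1 and 0.99 for Ucp2, and thinning 0.89 for Plin5 and 0.93 for Slc27a1. In trained rats library totals gave 0.87 for Dgat1, 0.65 for Plin5, 0.79 for Slc27a1 and 0.75 for Ucp2, and thinning 1.02 for Dgat1 and 1.16 for Slc27a1. Acadm between LV and SM was at 0.037 with library totals. The cause was not tested. Over all members, the largest numbers turned in training were 15 of 40 in SM in rats 17 to 32, with Fabp3 and Ucp3, and 12 of 39 in MT in rats 2 to 16, none of them called. Of the called members between MT and SM, library totals turned 6 in sedentary and 7 in trained rats and thinning 5 and 5, and between LV and SM library totals turned 0. For the same selection of single genes, 572 values kept direction and side of the threshold, 19 gained a call and 19 lost one. With the rat as a replicate block, 40 members passed between MT and SM in sedentary rats (4 higher) and 36 between LV and SM (29 higher), where 94.7% and 77.8% of all genes did, and 38 and 37 in trained rats, where 94.2% and 78.3% did. The added calls were Angptl4 in both sedentary comparisons (0.81 and −0.76) and Acadm between LV and SM.

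Depth limits MT most: 0 to 10 members a library had fewer than 10 counts there. Each left ventricle comparison rests on 7 rats a group. Tissue comparisons mix tissue with kit or RNA input. Bulk RNA cannot tell fibre make-up from transcript level within a fibre.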
